A study of Mus musculus with 25 samples.

Results

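Multiparous MMTV-Met mammary tumours were set against multiparous Trp53-deleted tumours, so that parity was the same on both sides. The 10 tumours compared, of 25 arrays in the series, were chosen by their labelled genotype and parity, with no use of the measured values. Tumours labelled nulliparous, the 4 tumours with no stated parity and the 2 pools of normal mammary gland, labelled wild-type, lay outside the comparison. All 10 came from female FVB mice. The Met group held 6 tumours of genotype MMTV-Met, in which the mouse mammary tumour virus promoter drives a Met transgene. The Trp53-deleted group held 2 tumours of genotype MMTV-Met;Trp53fl/+ (MetTrp53) and 2 of genotype Trp53fl/+ (Trp53 alone). In both of the deleted genotypes 1 Trp53 allele is floxed, and the series' design names a Cre in both without giving its driver. The MetTrp53 tumours thus carry the Met transgene too, and the contrast averages over tumours with and without it. Ages were not given in the sources used here, and no label says whether the tumours are from separate animals. The p-values therefore reflect a spread among samples, pooled within the groups of all 25 arrays, and not a spread among a known number of animals.

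Pathology differed within and between the groups. The Met tumours were labelled solid nodular carcinoma (tumours 1 and 3), spindloid (tumour 2), adenosquamous (tumour 4), scirrhous adenocarcinoma (tumour 5) and adenocarcinoma (tumour 6). MetTrp53 tumour 1 was an adenocarcinoma and MetTrp53 tumour 2 a poorly differentiated adenocarcinoma. Trp53 tumour 1 was labelled intermediate and Trp53 tumour 2 spindloid. Every Trp53-alone tumour was therefore spindloid or intermediate, against 1 of 6 Met tumours, and pathology cannot be told apart from the Trp53-alone genotype in these samples.

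A miRNA is a short RNA that guides Argonaute proteins to messenger RNAs, mainly through its seed, bases 2 to 8, and lowers their output. Met is the receptor tyrosine kinase for hepatocyte growth factor, and p53, the product of Trp53, is a transcription factor that raises miR-34a among other miRNAs after damage. The miR-200 family holds epithelial cells in their epithelial state by repressing the Zeb factors, and spindle-shaped mammary tumours are known for low levels of it. The array measured neither Met nor Trp53 messenger RNA, so the labelled genotypes were not checked here.

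Mature sequences are shown for the miRNAs on which the results below turn, with the seed in capitals, grouped so that miRNAs of 1 seed stand together. Members of a seed group share predicted targets. Some groups held values of like sign and others values of both signs, with none past the threshold between Met and deleted tumours. Sequences are from RefSeq (GRCm38.p6), where 201 of the 261 tested miRNAs were matched by name.

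miR-221-3p: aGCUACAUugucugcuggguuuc
miR-222-3p: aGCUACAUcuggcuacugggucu
miR-125a-5p: uCCCUGAGacccuuuaaccuguga
miR-125b-5p: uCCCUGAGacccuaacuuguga
miR-29a-3p: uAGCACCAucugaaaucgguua
miR-29b-3p: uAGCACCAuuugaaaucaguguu
miR-27a-3p: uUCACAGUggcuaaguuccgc
miR-27b-3p: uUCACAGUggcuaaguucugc
miR-146a-5p: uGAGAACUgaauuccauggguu
miR-146b-5p: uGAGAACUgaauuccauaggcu
miR-148a-3p: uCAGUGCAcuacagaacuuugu
miR-148b-3p: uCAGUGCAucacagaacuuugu
miR-152-3p: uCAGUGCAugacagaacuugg
miR-30a-5p: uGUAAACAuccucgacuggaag
miR-16-5p: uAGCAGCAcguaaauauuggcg
miR-200b-3p: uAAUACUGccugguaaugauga
miR-200c-3p: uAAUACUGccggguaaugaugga
miR-200a-3p: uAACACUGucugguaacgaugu
miR-141-3p: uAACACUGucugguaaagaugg
miR-31-5p: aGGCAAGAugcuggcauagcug
miR-149-5p: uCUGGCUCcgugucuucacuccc
miR-34a-5p: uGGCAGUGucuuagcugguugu

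In GRCm38.p6 miR-221-3p (chrX:19146307-19146329) and miR-222-3p (chrX:19146901-19146923) lie beside each other on the minus strand. The loci of miR-23a-3p (chr8:84208563-84208583) and miR-27a-3p (chr8:84208727-84208747) are neighbours on the plus strand. Of the miR-200 family, miR-200a-3p, miR-200b-3p and miR-429-3p lie together on chromosome 4, and miR-200c-3p and miR-141-3p on chromosome 6. The arms miR-30a-5p (chr1:23272274-23272295) and miR-30a-3p (chr1:23272315-23272336) come from 1 hairpin.

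A level is the scanner signal of a miRNA, scaled to the 75th percentile of its array and given as log2, so that a difference of 1 is 2-fold. Values below a floor were set to it, and the floor is 3.72 on this scale. A miRNA was tested if it was well above background on at least 4 of the 10 tumours, which kept 261 of 1122 mouse miRNAs. Of these, 6 were above background on no deleted tumour and so passed only through the Met group, and 0 passed only through the deleted group. The Met arrays detected between 182 and 274 miRNAs and the deleted arrays between 203 and 245. Differences are Met minus deleted, where deleted is the mean of the MetTrp53 and Trp53-alone means, from a limma model of all 25 arrays.

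No miRNA passed the threshold between Met and deleted multiparous tumours (0 of 261 with limma at an adjusted p under 0.05, 0 percent). At an unadjusted p under 0.05 there were 40 (15.3 percent), with 10 values higher and 30 lower in Met tumours, and the smallest adjusted p was 0.0838. The 10 include miR-181c-5p, which passed the filter only through the Met group. The median difference over all 261 miRNAs was 0.07, and the median standard error of a difference was 0.33. The lowest p-values belonged to miR-27a-3p, miR-149-5p, miR-222-3p and miR-221-3p, all with lower values in Met tumours. Single tumours decided this count, 0 with all 10: without the spindloid Met tumour 2, 13 of the 261 passed, 3 higher and 10 lower in Met, and without MetTrp53 tumour 2, 1 passed. When both spindloid tumours were left out, 0 passed with limma and 45 had an unadjusted p under 0.05. The smallest adjusted p of that fit was 0.0500048, shared by miR-148a-3p, miR-27a-3p, miR-222-3p, miR-221-3p and miR-652-3p, so this 0 lies at the threshold itself.

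**Figure D1:**
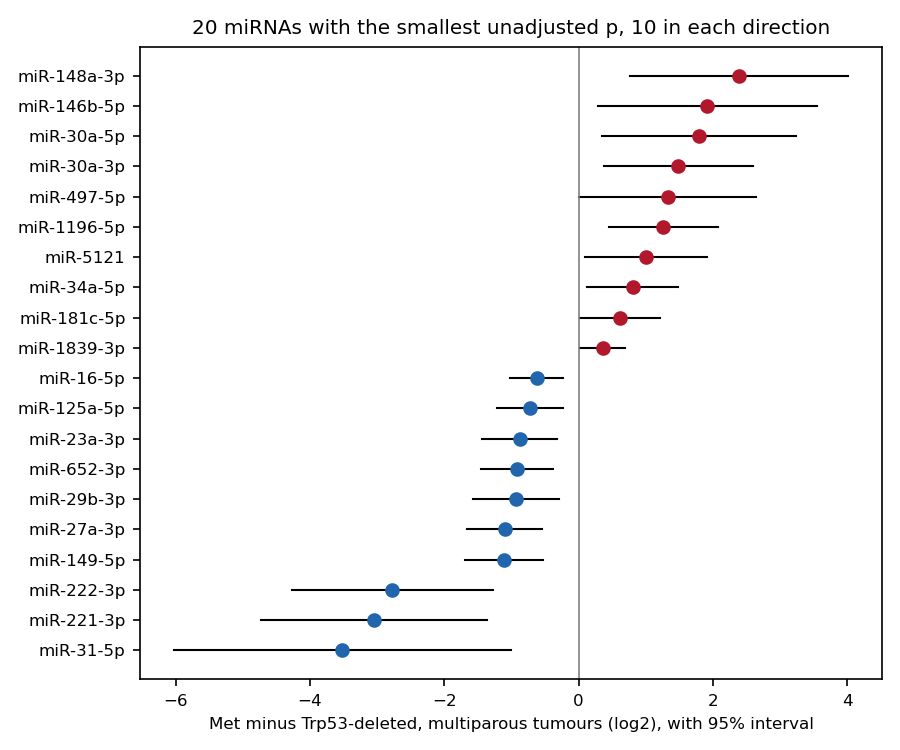
Met minus Trp53-deleted difference (log2, horizontal axis) for the 20 miRNAs with the smallest unadjusted p, 10 in each direction, in multiparous tumours. Points are limma estimates from 6 Met and 4 deleted tumours and lines are 95% intervals, and the largest absolute values are those of miR-31-5p at -3.52, miR-221-3p at -3.05 and miR-222-3p at -2.78. The direction of miR-181c-5p was fixed beforehand by the detection filter, so its interval is no test.

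Met tumours had lower values of the pair miR-221-3p and miR-222-3p, which repress the cell-cycle inhibitor p27. The level of miR-221-3p ran from 3.95 through a median of 4.53 to 7.29 in Met tumours, against 8.24 and 5.35 in the MetTrp53 and 9.38 and 9.05 in the Trp53-alone tumours. The highest Met value was that of the spindloid tumour 2, and the lowest deleted value that of MetTrp53 tumour 2, so the groups overlapped. Met averaged 4.95 ± 1.28 (SD, n = 6) and deleted 8.00 ± 1.83 (SD, n = 4), a difference of -3.05 (SE 0.80, limma adjusted p = 0.0838). Without Met tumour 2 the difference was -3.52 (limma adjusted p = 0.0210), and with normexp background -1.84 (adjusted p = 0.0557).

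The partner miR-222-3p lay between 3.72 and 6.13 in Met tumours, with a median at the floor of 3.72. It stood at 7.35 and 5.20 in the MetTrp53 tumours and at 7.76 and 7.64 in the Trp53-alone tumours. Only 3 of 6 Met arrays had it above background, so the difference of -2.78 (SE 0.71, limma adjusted p = 0.0838) rests in part on the floor, and normexp background gave -1.37 (adjusted p = 0.0557). Here 5 of 6 Met tumours lay below every deleted tumour, and the spindloid Met tumour 2 was the exception. The 3 slides that held both groups had 1 Met tumour each (tumours 1, 4 and 5), against 1, 1 and 2 deleted tumours. The spindloid Met tumour 2 was on none of them, so within-slide values here and below rest on single Met tumours. On these slides the difference was -3.63, -1.48 and -3.45 for miR-222-3p. The same slides gave -4.23, -0.42 and -3.81 for miR-221-3p.

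The miR-23a and miR-27a pair, hosted by 1 transcript, had lower values in Met tumours too. The level of miR-27a-3p, known as a repressor of Foxo1, ran from 8.42 through 8.80 to 9.27 in Met tumours, against 9.93 and 9.47 in the MetTrp53 and 10.29 and 9.98 in the Trp53-alone tumours. Every Met tumour was below every deleted tumour. The difference was -1.10 (SE 0.27, 95% interval -1.66 to -0.54, limma adjusted p = 0.0838), and it was -1.49, -0.67 and -1.33 within the 3 slides. Its neighbour miR-23a-3p had Met levels of 8.60 to 9.85 with a median of 9.27, against 9.98 and 9.84 in the MetTrp53 and 10.45 and 10.03 in the Trp53-alone tumours. In 5 of 6 Met tumours the level was below all deleted tumours, and the difference was -0.88 (SE 0.27, limma adjusted p = 0.141). The miRNA of the same seed on chromosome 13, miR-27b-3p, had a value of the other sign, 0.71 (SE 0.53, limma adjusted p = 0.493), so this seed group held values of both signs.

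Other lower values were those of miR-31-5p, miR-149-5p, miR-16-5p and miR-125a-5p. The level of miR-31-5p, described as a repressor of breast cancer metastasis, was at the floor in Met tumours 1 and 6. It was 5.41, 5.93 and 6.63 in Met tumours 3, 4 and 5, and 9.35 in the spindloid Met tumour 2. The MetTrp53 tumours had 10.77 and 7.95 and the Trp53-alone tumours 9.50 and 9.03. In 5 of 6 Met tumours it was below all deleted tumours, at a difference of -3.52 (SE 1.19, limma adjusted p = 0.189). It was -4.23 (limma adjusted p = 0.0393) without Met tumour 2 and -2.32 (adjusted p = 0.229) with normexp background.

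The level of miR-149-5p lay between 3.72 and 4.50 in Met tumours (median 3.82), against 5.56 and 3.95 in the MetTrp53 and 5.37 and 5.32 in the Trp53-alone tumours. MetTrp53 tumour 2 sat inside the Met range, and the difference was -1.12 (SE 0.28, limma adjusted p = 0.0838). The probes of this miRNA gave differences from -1.94 to -0.29, so its size depends on the probe. Leaving out single tumours gave -1.52 (limma adjusted p = 0.00375) without MetTrp53 tumour 2, -1.23 (adjusted p = 0.0210) without Met tumour 2 and -0.71 (adjusted p = 0.443) without MetTrp53 tumour 1. It was -0.63 (limma adjusted p = 0.279) with normexp background and -2.30 (adjusted p = 0.0612) with summed signals, the ends of the other alternatives, and -1.70, 0.08 and -1.56 within the 3 slides. The level of miR-16-5p, a cell-cycle repressor, was 7.99 to 8.86 in Met tumours (median 8.51), against 9.15 and 9.02 in the MetTrp53 and 9.27 and 9.06 in the Trp53-alone tumours. Its groups did not overlap, at a difference of -0.63 (SE 0.19, limma adjusted p = 0.141).

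**Figure D2:**
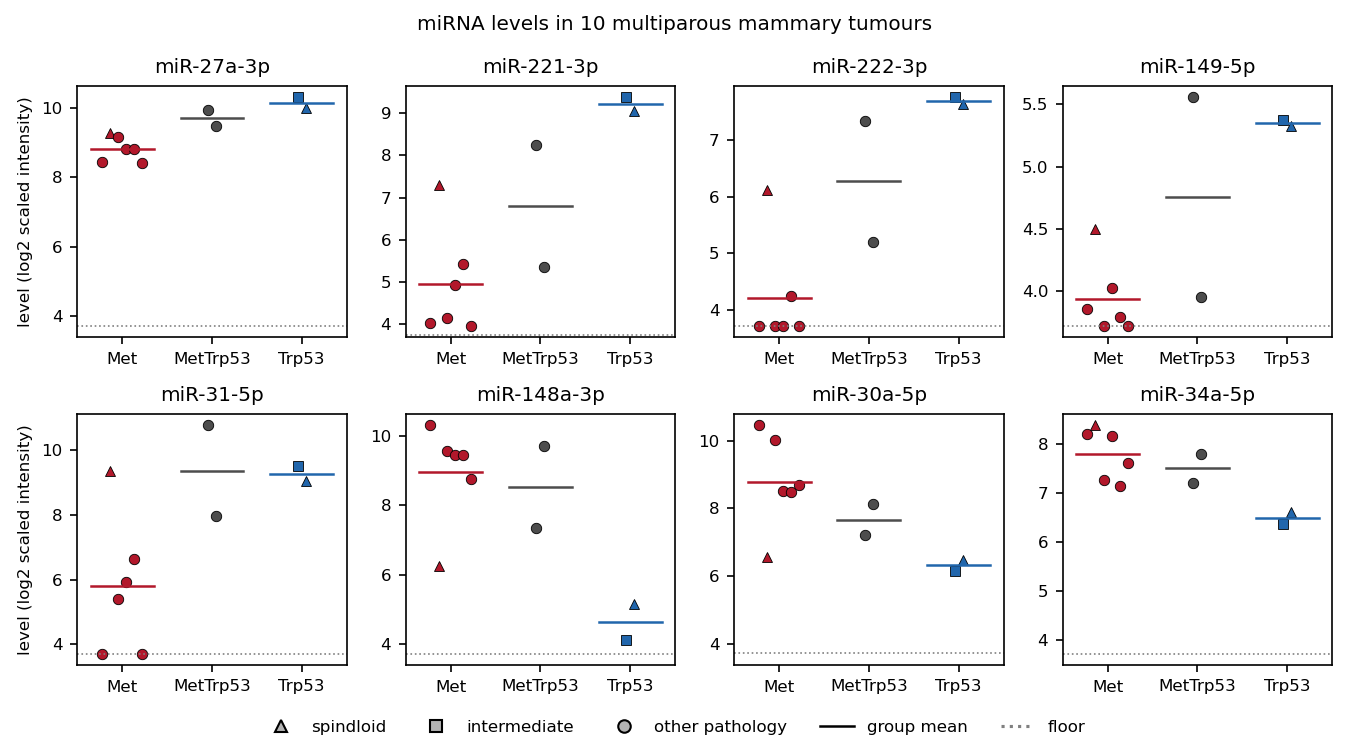
Level (log2 scaled intensity, vertical axis) of 8 miRNAs in each multiparous tumour, with Met left of MetTrp53 and Trp53 alone. Triangles are spindloid, squares intermediate and circles other pathologies, bars are group means and the dotted line is the floor at 3.72. For miR-221-3p, miR-222-3p and miR-31-5p the Met triangle is the highest Met value, and for miR-148a-3p and miR-30a-5p it is the lowest.

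Higher values in Met tumours were found for miR-148a-3p, the miR-30a arms, miR-146b-5p and miR-34a-5p, and none passed the threshold. The level of miR-148a-3p, which is abundant in milk and in the lactating gland, ran from 6.24 through 9.45 to 10.31 in Met tumours. It was 7.34 and 9.72 in the MetTrp53 tumours and 4.10 and 5.14 in the Trp53-alone tumours. Met tumour 2 was again the outlying Met tumour, and MetTrp53 tumour 2 lay among the Met tumours. The difference was 2.39 (SE 0.77, limma adjusted p = 0.167), and it was 2.93 (limma adjusted p = 0.0210) without Met tumour 2. Without the spindloid and intermediate tumours the difference was 0.98 (limma adjusted p = 0.855), but that fit left 5 Met and 2 MetTrp53 tumours and dropped the Trp53-alone genotype. It was 1.18 (limma adjusted p = 0.663) with pathology as a covariate in the 10 tumours and 1.49 (adjusted p = 0.229) with normexp background. Within slides it was 2.97, -0.28 and 4.84. The miRNAs of the same seed, miR-148b-3p at -0.03 (SE 0.14) and miR-152-3p at -0.31 (SE 0.48), did not share this value.

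The level of miR-30a-5p, which targets Snai1 and other drivers of mesenchymal change, was 6.58 to 10.45 in Met tumours (median 8.61). It was 7.21 and 8.13 in the MetTrp53 tumours and 6.17 and 6.47 in the Trp53-alone tumours. Met tumours other than tumour 2 all lay above the deleted ones, at a difference of 1.80 (SE 0.69, limma adjusted p = 0.228). With pathology as a covariate it was 1.15 (limma adjusted p = 0.663). The other arm, miR-30a-3p, had 1.48 (SE 0.53, limma adjusted p = 0.1995), also with 5 of 6 Met tumours above all deleted ones. Within the 3 slides the differences were 3.25, 0.38 and 2.15 for miR-30a-5p and 3.28, 0.69 and 1.21 for miR-30a-3p.

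The level of miR-34a-5p, the best known p53 target among miRNAs, lay between 7.15 and 8.40 in Met tumours (median 7.90). It was 7.22 and 7.81 in the MetTrp53 tumours and 6.36 and 6.62 in the Trp53-alone tumours. The MetTrp53 tumours lay within the Met range and the Trp53-alone tumours below it, and the difference over both genotypes was 0.80 (SE 0.32, limma adjusted p = 0.237). Without the spindloid and intermediate tumours it was 0.17 (limma adjusted p = 0.974), and with normexp background 0.52 (adjusted p = 0.444). The fit without those tumours compares 5 Met with 2 MetTrp53 tumours, as both Trp53-alone tumours drop out, so genotype changes with pathology there. The inflammation-linked miR-146b-5p had 1.92 (SE 0.77, limma adjusted p = 0.237), while miR-146a-5p of the same seed had -1.01 (SE 0.42, limma adjusted p = 0.246). Further values on this side were 1.26 for miR-1196-5p, 1.33 for miR-497-5p, 0.997 for miR-5121 and 0.36 for miR-1839-3p. The level of miR-181c-5p was above background on 5 Met and 0 deleted tumours. It entered the test through the Met group alone, so its direction was fixed beforehand. That it is counted among the 10 higher values at an unadjusted p under 0.05 is therefore no support for a difference.

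Groups that did not overlap were found on the lower side alone. In 7 of 261 miRNAs (2.68 percent) every Met tumour was below every deleted tumour, and in 0 (0 percent) every Met tumour was above. The 7 were miR-185-5p, miR-27a-3p, miR-16-5p, miR-98-5p, miR-652-3p, miR-29b-3p and miR-28-5p. The gap between the lowest deleted and the highest Met tumour ran from 0.01 for miR-28-5p to 0.26 for miR-185-5p. In miR-185-5p, Met tumours had 3.94 to 4.48 (median 4.24), against 5.09 and 4.99 in the MetTrp53 and 4.74 and 5.19 in the Trp53-alone tumours, and the fit gave -0.77 (SE 0.28, limma adjusted p = 0.1995). The fit of miR-98-5p, which has the let-7 seed, gave -0.54 (SE 0.30, limma adjusted p = 0.423). In miR-29b-3p, which represses collagens, Met tumours had 6.73 to 7.62 (median 7.07), against 8.02 and 8.94 in the MetTrp53 and 7.67 and 7.68 in the Trp53-alone tumours, at -0.93 (SE 0.30, limma adjusted p = 0.167).

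**Figure D3:**
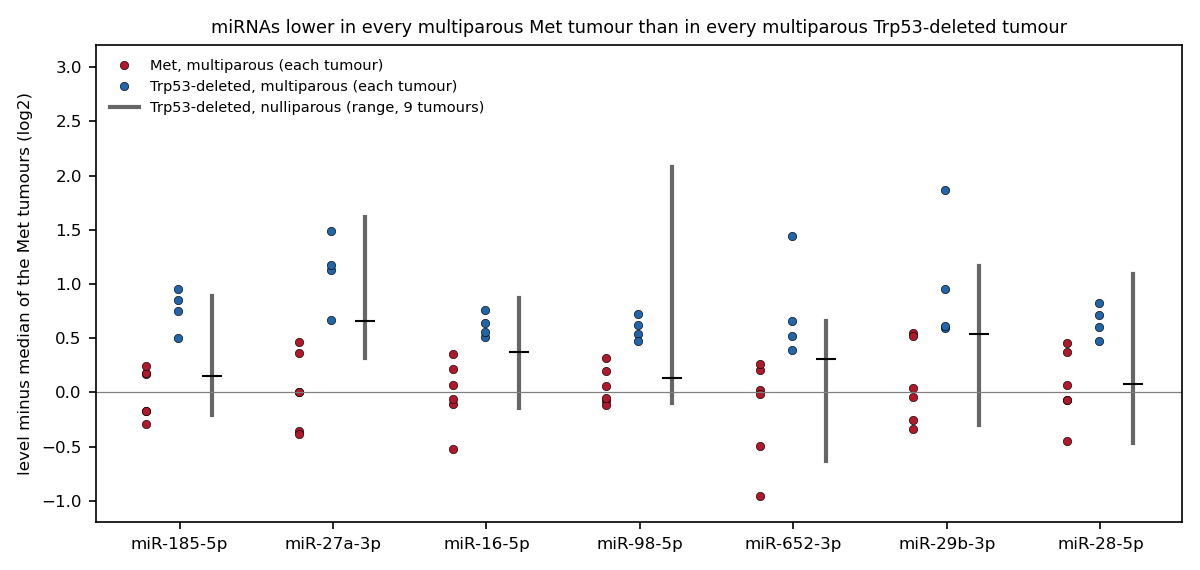
Level minus the median of the Met tumours (log2, vertical axis) for the 7 miRNAs with no overlap between the multiparous groups. Red points are the 6 Met tumours, blue points the 4 deleted tumours, and grey bars the range of 9 nulliparous deleted tumours with their median as a black tick. The grey bars reach into the Met points in all 7, with medians above 0.

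The nulliparous deleted tumours played no part in choosing these 7 miRNAs, but the 6 Met tumours they are set against did. The choice favoured miRNAs with a low Met maximum, so the counts below are a description and no independent test. The share with such counts over all tested miRNAs was not taken. Of 9 such tumours, 6 lay above all 6 multiparous Met tumours in miR-27a-3p and 6 in miR-16-5p. The count was 5 for miR-652-3p, 4 for miR-29b-3p, and 3 each for miR-185-5p, miR-28-5p and miR-98-5p. For miR-27a-3p the multiparous Met maximum was 9.27, against a nulliparous deleted median of 9.46. None of these counts separates the groups completely, and both parity and pathology differ between the tumours set side by side. Where a pathology was given, the nulliparous deleted tumours were spindloid, intermediate or poorly differentiated adenocarcinoma.

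The comparison with Trp53-alone tumours gave the calls of this design. Against the 2 Trp53-alone tumours, 6 of 261 miRNAs passed (2.3 percent), 1 higher and 5 lower in Met, and 49 had an unadjusted p under 0.05 (18.8 percent). Against the 2 MetTrp53 tumours 0 passed (0 percent) with limma, and 20 had an unadjusted p under 0.05 (7.66 percent), 1 higher and 19 lower. Both use the same 6 Met tumours. The MetTrp53 tumours differed from the Trp53-alone tumours in 0 miRNAs (0 percent), with 17 at an unadjusted p under 0.05 (6.51 percent), and this contrast is the test of whether the other two differ.

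Higher in Met than in Trp53-alone tumours was miR-148a-3p, by 4.34 (SE 0.98, 95% interval 2.29 to 6.40, limma adjusted p = 0.0454), with every Met tumour above both. Against MetTrp53 its value was 0.43 (interval -1.63 to 2.49). Lower were miR-221-3p, which fell by 4.26 (limma adjusted p = 0.0462), miR-222-3p, which fell by 3.49 (adjusted p = 0.0484), and miR-149-5p, which fell by 1.41 (adjusted p = 0.0484). The level of miR-27a-3p fell by 1.32 (limma adjusted p = 0.0484), against -0.88 (interval -1.59 to -0.18) in the MetTrp53 comparison. The level of miR-125a-5p, a repressor of Erbb2 and Erbb3, fell by 1.29 (limma adjusted p = 0.0454). Its levels were 7.02 to 7.92 in Met tumours (median 7.52), 8.11 and 7.20 in the MetTrp53 and 8.78 and 8.82 in the Trp53-alone tumours, so MetTrp53 tumour 1 and both Trp53-alone tumours lay above the Met range and MetTrp53 tumour 2 lay within it.

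These 6 calls lie close to the threshold. Leaving out any of Met tumours 1, 3, 4, 5 and 6 or either Trp53-alone tumour gave 0, and leaving out the spindloid Met tumour 2 gave 20, 10 higher and 10 lower. A block for slide, or for scan date, left 0 (limma, with 53 and 54 at an unadjusted p under 0.05), and a fit of the 10 tumours alone also gave 0 (34 unadjusted).

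**Figure D4:**
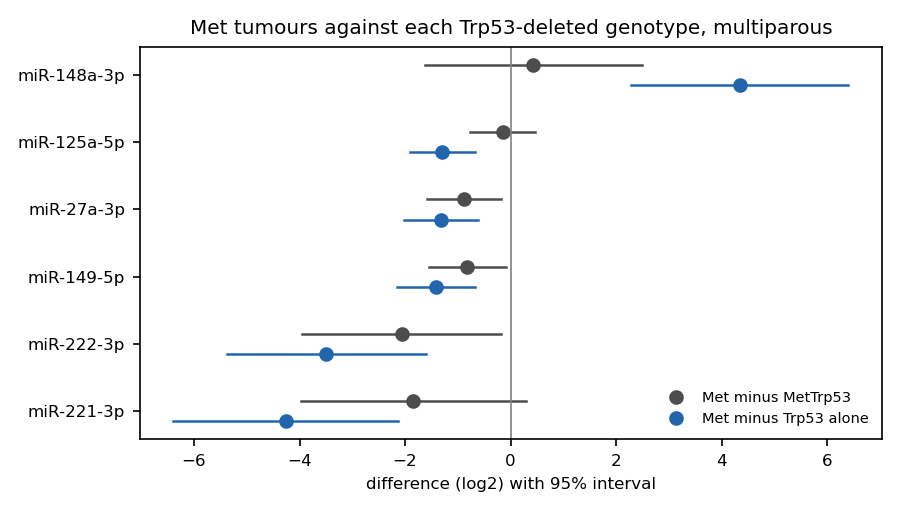
Difference (log2, horizontal axis) of the 6 miRNAs that passed against Trp53-alone tumours, given for Met minus MetTrp53 (grey) and Met minus Trp53 alone (blue) in multiparous tumours. Lines are 95% intervals. The 2 intervals overlap in all 6 miRNAs, and for miR-148a-3p the points stand at 0.43 and 4.34.

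The lists of miRNAs by role showed where the tumours differed among themselves. In the miR-200 family 5 of 5 members had higher values in Met tumours and none passed the threshold (background 0 percent), at a median of 2.13 against 0.07 over all 261. The level of miR-200c-3p ran from the floor of 3.72 through 9.43 to 11.11 in Met tumours, against 7.09 and 9.64 in the MetTrp53 tumours and the floor in both Trp53-alone tumours. All 5 members were at the floor in Met tumour 2 and in both Trp53-alone tumours, and none of the other 7 tumours had any of them there. The list's median level per tumour was 8.25 to 9.57 in the 5 other Met tumours and 6.43 and 9.15 in the MetTrp53 tumours. With these whole-tissue samples, fewer epithelial cells and less of these miRNAs per cell cannot be told apart.

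Against MetTrp53 tumours the family's median difference was 0.38, and against Trp53-alone tumours 4.11. Both Trp53-alone arrays were at background, and Met tumour 2, which is part of the Met mean, was at the floor as well. The folds are therefore lower bounds only with Met tumour 2 taken at the floor. On that footing miR-200c-3p was at least 34.1-fold higher in Met (limma adjusted p = 0.165) and miR-200a-3p at least 9.76-fold (limma adjusted p = 0.185). Within slides the median of the 5 was 3.63 and 4.53 on slides 1 and 4, and -0.93 on slide 3, where the deleted tumour was MetTrp53 tumour 2. Without the spindloid and intermediate tumours, which left 5 Met and 2 MetTrp53 tumours, the median was 1.04.

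The other epithelial list, which holds miR-205-5p of basal epithelium and the miR-183 cluster, had 5 of 6 members tested. All 5 had higher values and none passed, at a median of 0.48. The remaining one, miR-375-3p, was above background on 0 of the 10 tumours. The level of miR-205-5p was 3.82 in Met tumour 2 and 6.18 to 9.22 in the other Met tumours, against 6.21 and 8.40 in the MetTrp53 tumours and the floor in both Trp53-alone tumours. Without the spindloid and intermediate tumours, and so without the Trp53-alone genotype, the list's median turned to -0.63.

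Among 12 tested mesenchymal and stromal miRNAs 8 had lower values in Met tumours and 4 higher, at a median of -0.98, and none passed. The 4 higher were miR-143-3p, miR-145-5p, miR-99a-5p and miR-10b-5p, with values of at most 0.44. Within slides the list's median was -1.95, 0.35 and -0.28 on slides 1, 3 and 4, so its sign turned on slide 3. The level of miR-199b-5p, carried by an antisense transcript of Dnm1, was 9.08 in Met tumour 2 and 4.28 to 7.94 in the other Met tumours, against 7.34 and 6.06 in the MetTrp53 and 9.53 and 9.11 in the Trp53-alone tumours. The lowest p in this list was that of miR-125b-5p, at -1.68 (SE 0.64, limma adjusted p = 0.228), and miR-125a-5p, which has its seed, had -0.72 (SE 0.23, limma adjusted p = 0.167).

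**Figure D5:**
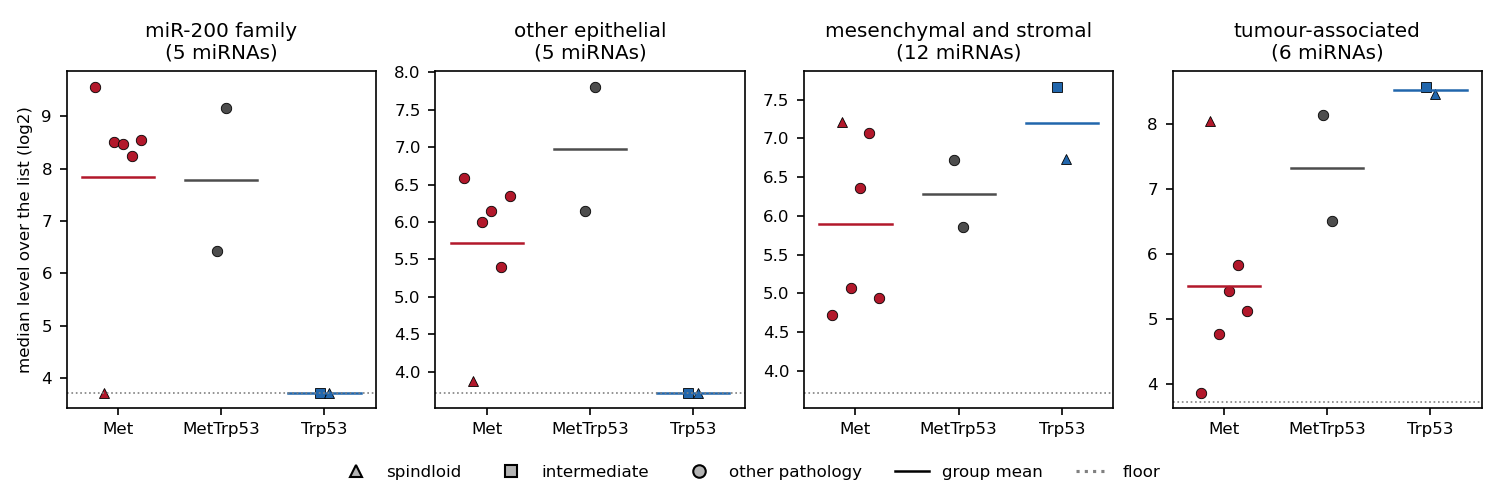
Median level (log2, vertical axis) over the tested members of 4 lists in each multiparous tumour, with Met left of MetTrp53 and Trp53 alone, and symbols by pathology. The spindloid Met tumour lies at 3.72 in the miR-200 family, the value of both Trp53-alone tumours, and at 8.05 in the tumour-associated list, above the other 5 Met tumours.

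In the tumour-associated list, miRNAs widely reported as raised in cancer, 5 of 6 had lower values in Met tumours at a median of -2.18, and none passed. An unadjusted p under 0.05 was found for 4 of them, against 40 of all 261 miRNAs (15.3 percent), of which 30 were lower. The 4 include miR-221-3p, miR-222-3p and miR-31-5p, already named above for their low p in this same comparison. The members of the list were miR-21-5p, miR-31-5p, miR-155-5p, miR-210-3p, miR-221-3p and miR-222-3p. The level of miR-21-5p was 9.20 to 11.97 in Met tumours other than tumour 2, which had 13.89, the highest of all 10 tumours. The MetTrp53 tumours had 13.16 and 12.64 and the Trp53-alone tumours 13.52 and 13.11, at a difference of -1.58 (SE 0.61, limma adjusted p = 0.230). Within slides the list's median was -3.79, -0.70 and -1.99.

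Of 10 p53-induced miRNAs 6 were tested. That of miR-34a-5p stood above 0 and the other 5 below it, at a median of -0.29, and none passed. The list holds miR-149-5p, although its partner arm is the one described as p53-responsive, and miR-34b-5p and miR-34c-5p reached at most 4.48 and 4.76 in the 10 tumours. Met-targeting miRNAs, which include the miR-34 members and miR-199a-3p, were split 3 and 3 at a median of 0.26. The summed level of this list ran from 9.72 to 11.92 in Met tumours and from 10.22 to 11.45 in deleted tumours.

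In the miR-29 family all 3 members had lower values in Met tumours, at a median of -0.93, and none passed. The level of miR-29a-3p was 9.27 to 11.27 in Met tumours (median 10.67), against 11.77 and 11.46 in the MetTrp53 and 11.19 and 11.33 in the Trp53-alone tumours, at -0.97 (SE 0.35, limma adjusted p = 0.1995). The miR-30 family had 5 of 5 higher values at a median of 0.49, and the let-7 family 7 of 9 lower values at -0.27. The miR-15/16 list, 7 members, split into 2 higher and 5 lower values, at -0.34. The miR-17-92 members and paralogs, which are linked to proliferation, had 7 higher and 3 lower values of 10 tested, at a median of 0.34. None of these passed, and miR-106a-5p was not analysed here.

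Over all 24 seeds shared by 2 or more tested miRNAs, the largest absolute median difference was that of GCUACAU, the seed of miR-221-3p and miR-222-3p, at -2.91. It was followed by AAUACUG of miR-200b-3p, miR-200c-3p and miR-429-3p at 2.30, and by AACACUG of miR-141-3p and miR-200a-3p at 1.99. Of the 4 miR-181 members with the seed ACAUUCA all had higher values, at a median of 0.48. They include miR-181c-5p, whose direction was fixed beforehand by the detection filter. All 4 of the seed AGCAGCA, among them miR-16-5p, had lower values, at -0.51. Members of 1 seed differ in few bases, so a probe may also bind its relatives, and cross-hybridisation was not tested.

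Markers of other cell types also varied. Of 7 leukocyte miRNAs 6 were tested, with 2 higher and 4 lower values and a median of -0.89. Their summed level was 9.33 to 10.86 in Met tumours and 10.01 to 10.74 in deleted tumours. The myeloid miR-223-3p was 6.17 to 9.78 in Met tumours, with tumour 2 the highest, against 10.02 and 8.00 in the MetTrp53 and 10.13 and 10.40 in the Trp53-alone tumours. Its difference was -1.57 (SE 0.65, limma adjusted p = 0.246), and the part of leukocytes in the other differences was not tested.

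The endothelial miR-126-3p had -0.52 (SE 0.51), and the second endothelial member, miR-126-5p, had 0.01. Adipose miRNAs had a median of -0.23 over 4 members, those of mammary gland development one of -0.34 over 9, and those of the Dlk1-Dio3 cluster one of -0.18 over 5 tested of 32 listed. The muscle miRNA miR-133b-3p, the 1 of 6 muscle miRNAs tested, stood at 8.78 in Met tumour 4 and 6.73 in Met tumour 2. In the deleted tumours it lay between 3.72 and 3.91, and the multiparous normal pool had 12.43. The erythroid miR-451 was at 7.94 to 10.33 in Met tumours and 7.41 to 9.71 in deleted tumours. The part of muscle, blood, endothelium and fat in the differences was not tested.

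Across all 261 miRNAs the tumours resembled each other in an order that followed the genotypes only in part, as a description over miRNAs of arrays scaled in 1 way. Met tumour 2 correlated at r = 0.84 to 0.96 with the 4 deleted tumours and at 0.74 to 0.87 with the other 5 Met tumours. MetTrp53 tumour 2 correlated at 0.84 to 0.94 with the 6 Met tumours. With MetTrp53 tumour 1 it correlated at 0.91, and with the Trp53-alone tumours at 0.81 and 0.82. MetTrp53 tumour 1 correlated at 0.94 and 0.95 with the Trp53-alone tumours and at 0.78 to 0.95 with the 6 Met tumours. Both MetTrp53 tumours carry the Met transgene, and its part in these values was not tested. The 2 Trp53-alone tumours correlated at 0.96 with each other. Met tumour 2 and MetTrp53 tumour 2 were set aside in what follows with these correlations known. The ranges below therefore depend on that choice and are no test of a separation. The 5 remaining Met tumours correlated at 0.81 to 0.95 among themselves and the 3 remaining deleted tumours at 0.94 to 0.96. Between those 5 and those 3 the correlations ran from 0.71 to 0.89.

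Parity was also examined directly within the deleted genotypes. Between the 4 multiparous and 9 nulliparous deleted tumours, as means over both genotypes, limma called 0 of 261 miRNAs (0 percent), and 7 had an unadjusted p under 0.05 (2.68 percent). The smallest adjusted p was 0.727 and the median standard error 0.31. For miR-27a-3p the multiparous minus nulliparous difference was 0.35, for miR-221-3p 0.62, for miR-31-5p 0.30, for miR-148a-3p 0.27 and for miR-34a-5p 0.40. An absence of calls at this size does not show that parity has no part, and pathology was not matched in this contrast.

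The unmatched comparison of 7 Met with 16 deleted tumours, whatever their parity, contains all 10 multiparous tumours and so is no independent test. There 41 of 261 passed (15.7 percent), 22 higher and 19 lower in Met, with a median standard error of 0.23, against 0.33 in the parity-matched comparison. The unmatched and matched values were -0.91 and -1.10 for miR-27a-3p, -2.56 and -3.05 for miR-221-3p, and -3.16 and -3.52 for miR-31-5p. They were 2.92 and 2.39 for miR-148a-3p, 2.25 and 1.80 for miR-30a-5p, and 1.28 and 0.80 for miR-34a-5p. For miR-200c-3p they were 3.84 and 2.78, and for miR-29b-3p -0.41 and -0.93. All 8 kept their sign, and the difference between the comparisons was not tested.

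The pool of multiparous normal mammary gland, of wild-type genotype and a single array, gave the level outside tumours. Its miR-221-3p was 4.46, its miR-222-3p 3.88 and its miR-31-5p 4.12, each within the range of the Met tumours and below all 4 deleted tumours. Its miR-27a-3p of 8.90 likewise lay within the Met range and below all 4 deleted tumours, and its miR-30a-5p of 8.69 within the Met range and above all 4. Its miR-148a-3p of 8.12 lay within the ranges of both groups. For miR-149-5p the pool had 4.63, above the Met maximum of 4.50 and within the range of the deleted tumours. For miR-29b-3p it had 7.63, just above the Met maximum of 7.62 and below all 4 deleted tumours. Its miR-34a-5p of 6.24 and its miR-125a-5p of 6.42 were below all 10 tumours. As the pool has no replicate, these values were not tested.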

How the data were processed

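Each sample was hybridised in 1 colour (Cy3) to an Agilent mouse miRNA array. Scanner files as deposited give each spot's intensity; per the file headers they come from Agilent Feature Extraction (10.7.3.1), which subtracted background and detrended the signal, with no normalisation across arrays. A second deposited file holds the authors' own log2 values, for which the submitters' processing notes name RMA. Its column medians were 1.72 to 1.91, its correlation with the scanner values was at least r = 0.996, and its centring is unknown. It was used only as an alternative.

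Processed signals of non-outlier spots were averaged per probe and divided by the array's 75th percentile over the 221 probes above background on all 25 arrays (that percentile was 278.9 to 738.2 intensity units in the 10 tumours). The result was multiplied by the median percentile, set to a floor (the 1st percentile of detected probes), taken to log2 and averaged over probes of a miRNA. A probe counted as detected if at least 50 percent of its spots were well above background. The number of arrays limits the precision.

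limma 3.58.1 in R 4.3.3 (lmFit, eBayes) fitted the 9 genotype and parity groups of all 25 arrays (16 residual degrees of freedom), with Benjamini-Hochberg adjustment over 261 miRNAs. The unmatched comparison used 4 genotype means. The code was checked beforehand on simulated data, and every value given comes from the deposited arrays. Members, lists and tests were chosen with earlier results of these data known. Named miRNAs were the 10 with the lowest unadjusted p in each direction, up to 5 per direction past the threshold in other comparisons, and tested list members. A bound takes the dim group at the higher of its own level and the lowest level above background, and keeps floor values in the other group. Replicate numbers follow accession order and pair nothing. Alternatives are given in the closing section. The normexp alternative used median signals, as the files hold no mean signal.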

Additional observations from a re-analysis of the deposited data

Results flagged for a closer look

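Sets were the Met or the deleted tumours of 1 miRNA, over 20 miRNAs, the 10 with the lowest p in each direction. In 4 of 40 sets 1 tumour lay farther from the rest than Dixon's test allows at the 95% level. Chance flags about 1 set in 20 if sets are independent and values lie clear of the floor. Here the same tumours recur in every set and some values lie at the floor. The spindloid Met tumour 2 had a miR-222-3p level of 6.13, above the other 5 Met tumours, of which the nearest was at 4.25. MetTrp53 tumour 2 stood apart from the other 3 deleted tumours in 3 miRNAs: at 5.20 in miR-222-3p, below the nearest at 7.35, at 3.95 in miR-149-5p, below 5.32, and at 4.20 in miR-1839-3p, above 3.81. Without Met tumour 2 the miR-222-3p difference was -3.16 (limma adjusted p = 0.0210), and without MetTrp53 tumour 2 it was -3.31 (limma adjusted p = 0.0547).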

How the results depend on the processing

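The count of 0 in the parity-matched comparison was also 0 under all 19 alternatives other than leaving out 1 tumour, where limma gave between 19 and 45 miRNAs at an unadjusted p under 0.05. Leaving out each tumour in turn gave 0 to 13, with 13 without Met tumour 2 and 1 without MetTrp53 tumour 2. Against MetTrp53, 1 passed in the fit of the 10 tumours with 3 genotype means, and leaving out tumours gave 0 to 2. Against Trp53 alone, where 6 passed, the count was 3 with normexp background, 10 with quantile normalisation, 3 with summed signals and 2 with only miRNAs detected on all 10 arrays. It was 0 with a floor 2 times higher, no detection filter, slide as a block, scan date as a block, trend and robust moderation, or the 10 tumours alone. It was 1 without the 2 spindloid tumours, an alternative chosen after seeing the data, and 0 to 20 on leaving out single tumours. Leaving out single tumours gave 0 to 3 for MetTrp53 against Trp53 alone and 0 to 2 for multiparous against nulliparous. The unmatched comparison, with 41, gave 27 with normexp, 25 with only miRNAs detected on all 10 arrays (138 tested) and 16 to 57 on leaving out tumours, with 16 without Met tumour 1 and 20 without Met tumour 3. The causes of these shifts were not tested. The value of miR-1839-3p turned to -0.0136 with normexp, and of 2977 named values 2963 kept their direction and side of the threshold or were uncalled in both fits, of which 92 turned sign. Normexp moved the median difference over all miRNAs by -0.18, the percentile over all mouse probes by -0.10 and leaving out spindloid and intermediate tumours by -0.13. No paired analysis was possible because the replicate numbers were given in accession order and pair no samples; the 3 slides with both groups gave the within-slide values and the fit with slide as a block. With 2 tumours in each deleted genotype and many levels at the floor, small differences were not detectable.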
